A study of Homo sapiens with 18 samples.

Results

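The genes described here are the calponins and their partners in the smooth-muscle type of actin filament: CNN1, CNN2, CNN3, TAGLN, TAGLN2, CALD1, TPM1, ACTA2, ACTC1 and TNS1. They were chosen by name, with earlier results of these data known. Each was read from the brightest probe set that the array annotation assigns to that symbol alone. All 10 were measured, out of 18377 genes tested. The cells were A549, an established human lung adenocarcinoma line of epithelial type, profiled on 18 Affymetrix whole-transcript arrays. Cells transfected with siPKCiz, an siRNA treatment aimed at both atypical protein kinase C isoforms (aPKC), ι and ζ, were set against cells transfected with a control siRNA, labelled siControl. Each siRNA arm was sampled 8 h after the start of TGFβ, 24 h after it, and without TGFβ, with 3 biological replicates, as labelled, in each of the 6 groups. The TGFβ was a pulse: cells deprived of serum received 250 pM for 1 h, were washed, and stayed in 0.2% serum for a further 7 or 23 h. Untransfected cells were not analysed here, all arrays come from 1 cell line, and a difference in RNA level cannot be told apart here from a difference in the share of cells that carry it.

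Calponins and transgelins are actin-binding proteins of 1 family that share a calponin homology domain. CNN1 and TAGLN (SM22α) are textbook markers of differentiated smooth muscle, while CNN2, CNN3 and TAGLN2 are also made in many non-muscle cells. CALD1 (caldesmon) and TPM1 (tropomyosin) lie along the actin filament and regulate its contact with myosin, ACTA2 and ACTC1 are the α-actins named for smooth and cardiac muscle, and TNS1 (tensin) ties actin filaments to integrins at the cell surface. Many genes of this kind are switched on by serum response factor, SRF, which binds a short DNA element called the CArG box, together with its cofactor myocardin, MYOCD, or the myocardin-related factors. TGFβ is well known to raise several of them in fibroblasts that turn into myofibroblasts.

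The stretches of DNA in front of CNN2, ACTC1 and ACTA2 are shown. These genes gave, in turn, the largest difference with silencing, a called response to TGFβ and no called response to TGFβ. Other members also gave a called response, and others gave none. Each is a RefSeq window of GRCh38.p14 from 250 bases before to 50 bases after an annotated start, printed on the gene's own strand, 5′ to 3′. Capitals mark a CArG box, meaning CC and GG around a core of 6 bases that are all A or T. The same element with 1 G or C in its core is also in capitals. For ACTC1 and ACTA2 the window shown is the only listed one that holds such elements.
CNN2, chr19:1026358-1026657, plus strand: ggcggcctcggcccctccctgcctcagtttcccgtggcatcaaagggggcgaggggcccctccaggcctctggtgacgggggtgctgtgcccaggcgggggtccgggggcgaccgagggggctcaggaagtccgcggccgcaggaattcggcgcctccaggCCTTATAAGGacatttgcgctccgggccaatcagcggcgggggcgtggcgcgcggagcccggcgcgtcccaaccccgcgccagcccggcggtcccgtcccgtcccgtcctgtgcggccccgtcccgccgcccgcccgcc
ACTC1, chr15:34795500-34795799, minus strand: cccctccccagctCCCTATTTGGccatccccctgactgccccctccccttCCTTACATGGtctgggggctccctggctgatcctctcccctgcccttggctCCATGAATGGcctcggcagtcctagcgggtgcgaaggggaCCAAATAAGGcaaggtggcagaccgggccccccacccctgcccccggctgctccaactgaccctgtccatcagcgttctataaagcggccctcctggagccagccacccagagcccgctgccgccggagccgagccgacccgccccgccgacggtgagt
ACTA2, chr10:88952724-88953023, minus strand: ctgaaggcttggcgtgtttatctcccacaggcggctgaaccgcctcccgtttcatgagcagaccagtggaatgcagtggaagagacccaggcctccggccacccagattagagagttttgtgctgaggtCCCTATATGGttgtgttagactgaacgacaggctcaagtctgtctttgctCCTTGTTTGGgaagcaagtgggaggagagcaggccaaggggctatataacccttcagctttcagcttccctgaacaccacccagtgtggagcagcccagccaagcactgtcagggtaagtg

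The CNN2 window held 1 CArG box, whose leftmost base lay at -89 counted from the start site. The ACTC1 window, which belongs to the first of its listed starts, held 1 at -109 and 3 elements with 1 G or C in the core, at -237, -200 and -149. The other listed ACTC1 windows held neither kind. The ACTA2 window, which belongs to the second of its listed starts, held 2 elements with 1 G or C, at -121 and -71. It held no CArG box proper. The first listed ACTA2 window held neither kind. Windows were found for 9 of the 10 members, all but TAGLN, and CNN2 and ACTC1 were the only ones among the 9 with a CArG box in any listed window. CALD1 and TNS1 each had 1 element with a G or C in the core, and CNN1, CNN3, TAGLN2 and TPM1 had neither kind. Searched on both strands, a CArG box lay in 1.29% of all 35116 RefSeq windows and the looser element in 6.94%. The short SMAD-type motif CAGAC, searched on both strands, lay in 45.3% of all windows and in a listed window of 7 of the 9 members, all but CNN2 and CNN3. These shares are per window, whereas the members are counted per gene. Several members have more than 1 listed window, so the counts and shares are not directly comparable. These letters are a description of the DNA, and whether any of them is bound in A549 cells was not tested.

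Values below are the deposited robust multi-array average (RMA) intensities, and changes are differences of their log2 values from a limma fit over all 18 arrays, with Benjamini-Hochberg adjustment over 18377 genes and a call at an adjusted p under 0.05. An intensity depends on the probes, so levels are compared between arrays and not between genes. Where the arrays of groups are said not to overlap, this describes the values. The share of all genes without overlap was not counted. The median intensity of an array lay between 156 and 161, which serves as a landmark for a dim probe set. PRKCI, the ι isoform, had 457.3 to 620.6 units on siPKCiz arrays and 2095 to 2818 on siControl arrays, and PRKCZ, the ζ isoform, had 141.9 to 254.2 on siPKCiz arrays and 264.9 to 490 on siControl arrays. The arrays numbered 1 stood apart: replicate 1 correlated at 0.992 to 0.995 with replicates 2 and 3 of its own group, and replicates 2 and 3 correlated with each other at 0.996 to 0.998 (Pearson's r across genes, which are not independent). PRKCZ in untreated cells was 242.1 on the siPKCiz array numbered 1 against 264.9 on the siControl array numbered 1. It was 141.9 and 162.2 on siPKCiz arrays 2 and 3 against 398.1 and 490 on siControl arrays 2 and 3. PRKCI in untreated cells was 512.9, 503.8 and 478.7 on siPKCiz arrays 1, 2 and 3. The siControl arrays of those numbers had 2469, 2163 and 2095, so the PRKCI gap was not narrower on the arrays numbered 1. Results that rest on the arrays numbered 1 are therefore given with and without them. These arrays were singled out from the same data, so calls made without them are not independent support.

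TGFβ raised the same 7 members in every one of its 4 comparisons: CNN1, CNN2, TAGLN, CALD1, TPM1, ACTC1 and TNS1. None of the 10 fell, at an adjusted p under 0.05 or at an unadjusted p under 0.05, and CNN3, TAGLN2 and ACTA2 did not pass the test. At 8 h, 7 of 10 members rose in siPKCiz cells, where 3.13% of all genes rose and 3.35% fell, and 7 of 10 rose in siControl cells, where 5.17% rose and 6.18% fell. At 24 h, 7 of 10 rose in siPKCiz cells against 4.65% of all genes that rose and 6.09% that fell, and 7 of 10 rose in siControl cells against 5.85% and 6.46%. The median log2 change of the members was 0.54 at 8 h and 0.65 at 24 h in siPKCiz cells, where the median of all genes was 0 and -0.008. In siControl cells the members' median was 0.755 at 8 h and 0.54 at 24 h, and that of all genes was 0.002 and -0.01. The comparisons at 8 h and 24 h share their untreated arrays, so the 4 counts are not independent of each other. The members were chosen with earlier results of these data known, so their counts beside the shares of all genes are a description only. The sample labels give a time only for treated cells, so the untreated arrays are not known to match either time. A difference in time in low serum, or in the wash, cannot be told apart here from an effect of TGFβ.

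**Figure D1:**
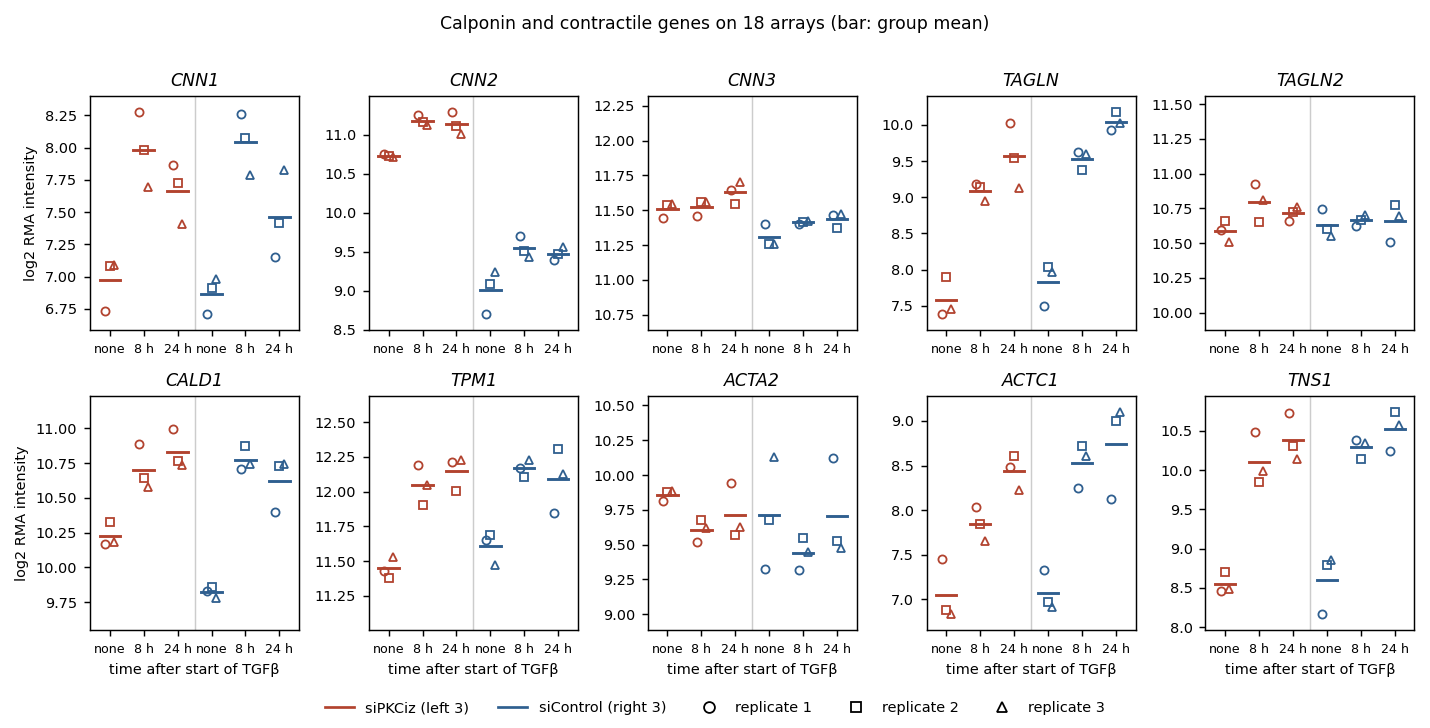
Log2 RMA intensity of the 10 members on each of the 18 arrays, 1 panel per gene, with the siPKCiz groups on the left and the siControl groups on the right of each panel in the order untreated, TGFβ 8 h and TGFβ 24 h. Symbols are replicates 1, 2 and 3 and bars are group means; the vertical scale differs between panels. TAGLN, ACTC1 and TNS1 climb steeply after TGFβ in both arms, and CNN2 sits higher on every siPKCiz array than on any siControl array.

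TAGLN (probe set 7944082, gene at chr11:117199294-117207465) had the largest change among the members at 24 h in both arms. It had 580.4, 565.1 and 491.9 units at 8 h in siPKCiz cells and 1042, 748.8 and 560.2 at 24 h, against 166.7, 238.4 and 176.3 in untreated siPKCiz cells. The siControl arrays had 789.9, 661.5 and 776.5 at 8 h and 979, 1158 and 1040 at 24 h, against 180.3, 261.7 and 249 untreated. Every treated array lay above every untreated array of its arm. The log2 change was 1.51 ± 0.18 (SE) at 8 h and 1.99 ± 0.18 at 24 h in siPKCiz cells, with limma adjusted p of 6.87e-05 and 1.45e-06. The 24 h change in siControl cells ranked TAGLN 16th in size of rise among all 18377 genes, and its 8 h change ranked it 24th.

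TNS1 (probe set 8058869, chr2:217799791-218033982) also rose by more than 1.5 on the log2 scale in all 4 comparisons. It had 1429, 920 and 1016 units at 8 h and 1689, 1262 and 1126 at 24 h in siPKCiz cells, against 353.7, 418.6 and 359.9 untreated. In siControl cells it had 1336, 1129 and 1305 at 8 h and 1214, 1708 and 1523 at 24 h, against 286.6, 442.9 and 463.9 untreated. Treated and untreated arrays did not overlap in either arm. The log2 change in siPKCiz cells was 1.55 ± 0.19 at 8 h (limma adjusted p = 7.48e-05) and 1.83 ± 0.19 at 24 h (limma adjusted p = 4.75e-06). The other tensins measured moved differently: TNS2 fell in all 4 comparisons, by 0.79 at 8 h and by 0.80 at 24 h in siPKCiz cells and by 0.92 and 0.87 in siControl cells. TNS3 fell in siControl cells, by 0.62 at 8 h and by 0.55 at 24 h, and TNS4, a shorter member of the family, rose at 8 h by 1.09 ± 0.22 in siPKCiz cells and 0.91 ± 0.22 in siControl cells.

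ACTC1 (probe set 7987315, chr15:34790230-34795549), the cardiac α-actin, lay below the array median on 4 of its 6 untreated arrays and above it on every treated array. It had 263.1, 230.1 and 202.2 units at 8 h and 358.8, 388.4 and 298.5 at 24 h in siPKCiz cells, against 175, 117.7 and 113.8 untreated. For siControl cells the values were 303.3, 422.8 and 389.7 at 8 h and 278.5, 513.1 and 548.3 at 24 h, against 161, 125.1 and 120.4 untreated. Treated and untreated arrays did not overlap in either arm. The log2 change was 0.80 ± 0.22 at 8 h (limma adjusted p = 0.0324) and 1.38 ± 0.22 at 24 h (limma adjusted p = 0.00029) in siPKCiz cells, and 1.46 ± 0.22 (limma adjusted p = 0.000201) and 1.67 ± 0.22 (limma adjusted p = 3.85e-05) in siControl cells. The 8 h call in siPKCiz cells was lost when the arrays numbered 2 (adjusted p = 0.321) or 3 (0.205) were left out, and also without any of 4 single arrays: untreated replicate 2 (0.12) or 3 (0.145), and 8 h replicate 1 (0.152) or 2 (0.082).

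CNN1 (probe set 8025918, chr19:11538851-11550323), the smooth-muscle calponin, had a higher mean at 8 h than at 24 h in both arms, but the times overlapped and their difference was not called. It had 309.7, 252.8 and 207.2 units at 8 h and 232.6, 212 and 169.6 at 24 h in siPKCiz cells, against 106.7, 135.7 and 136.3 untreated. In siControl cells it had 306.1, 269.7 and 221.2 at 8 h and 142.1, 170.6 and 226.5 at 24 h, against 104.6, 120.2 and 126.7 untreated. All 6 untreated arrays lay below the array median. The log2 change was 1.01 ± 0.18 at 8 h (limma adjusted p = 0.00132) and 0.69 ± 0.18 at 24 h (limma adjusted p = 0.0139) in siPKCiz cells, and in siControl cells it was 0.595 ± 0.175 at 24 h (limma adjusted p = 0.0305). These calls were thin: in siControl cells the 24 h call was lost without replicate number 2 (adjusted p = 0.243) or 3 (0.121), without untreated array 1 (0.12) or 2 (0.0651) and without 24 h array 2 (0.0657) or 3 (0.18). In siPKCiz cells the 24 h call was lost without replicate number 2 (0.174), untreated array 1 (0.0818) or 24 h array 1 (0.0826), and the 8 h call without replicate number 2 (0.0637).

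CALD1 (probe set 8136347, chr7:134711499-134970729) and TPM1 (probe set 7984079, chr15:63042747-63071915), which decorate the actin filament together, rose in both arms at both times. CALD1 had 1892, 1598 and 1532 units at 8 h and 2042, 1744 and 1703 at 24 h in siPKCiz cells, against 1151, 1284 and 1163 untreated, and its log2 change there was 0.48 ± 0.10 at 8 h and 0.61 ± 0.10 at 24 h. The siControl cells had 1670, 1877 and 1711 at 8 h and 1349, 1698 and 1714 at 24 h, against 909.7, 929.6 and 880.6 untreated, a log2 change of 0.95 ± 0.10 and 0.80 ± 0.10. No treated array of either arm reached down to its untreated arrays. TPM1 had 4683, 3824 and 4241 units at 8 h and 4743, 4102 and 4796 at 24 h in siPKCiz cells, against 2764, 2668 and 2959 untreated, a log2 change of 0.60 ± 0.11 and 0.70 ± 0.11. In siControl cells TPM1 had 4612, 4406 and 4792 at 8 h and 3681, 5067 and 4467 at 24 h, against 3227, 3298 and 2849 untreated, a log2 change of 0.56 ± 0.11 and 0.49 ± 0.11. The CALD1 call at 8 h in siPKCiz cells was lost without replicate number 2 (limma adjusted p = 0.0739) or 3 (0.0964) and without 8 h array 1 (0.0572). The TPM1 calls were lost without replicate number 3 at 8 h in siPKCiz cells (0.0578), at 8 h in siControl cells (0.114) and at 24 h in siControl cells (0.182), the last also without number 2 (0.0785).

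Among the calponins without a muscle-restricted pattern, CNN2 rose and CNN3 did not. CNN2 (probe set 8024111, chr19:1026608-1039065) had 2437, 2291 and 2230 units at 8 h and 2510, 2220 and 2068 at 24 h in siPKCiz cells, against 1729, 1701 and 1683 untreated. In siControl cells it had 830.8, 732.2 and 690.1 at 8 h and 671.8, 709.7 and 753.7 at 24 h, against 414.8, 545.8 and 605.3 untreated. The log2 change was 0.44 ± 0.11 at 8 h and 0.41 ± 0.11 at 24 h in siPKCiz cells and 0.54 ± 0.11 and 0.46 ± 0.11 in siControl cells, and the difference between the arms was -0.10 ± 0.16 at 8 h, with a 95% interval from -0.43 to 0.241. CNN3 (probe set 7917885, chr1:94896957-94927110) had 2779 to 3327 units on siPKCiz arrays and 2447 to 2841 on siControl arrays, and its 4 log2 changes after TGFβ lay between 0.019 and 0.131. The 95% interval of the CNN3 change at 24 h ran from -0.023 to 0.271 in siPKCiz cells and from -0.016 to 0.278 in siControl cells. The CNN2 call at 8 h in siControl cells was lost without replicate number 2 (limma adjusted p = 0.0851), and that at 24 h without number 2 (0.145), untreated array 1 (0.0598) or 24 h array 3 (0.0508). In siPKCiz cells, where CNN2 passed with adjusted p of 0.0213 and 0.0251, each call was lost without number 2 or 3 and without 5 of the 6 single arrays of its comparison.

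ACTA2 (probe set 7934906, chr10:88935074-88991337), the smooth-muscle α-actin and the usual marker of myofibroblasts, was not called higher after TGFβ at either time. It had 735, 817.8 and 787.8 units at 8 h and 982.7, 760.6 and 791.7 at 24 h in siPKCiz cells, against 899.1, 939.3 and 947.2 untreated. On siControl arrays it was 638.4, 747 and 699.1 at 8 h and 1112, 738.7 and 711.8 at 24 h, against 640.2, 819.2 and 1122 untreated. In siPKCiz cells all 3 arrays at 8 h lay below all 3 untreated arrays, a difference that was not called, and the other treated groups overlapped with the untreated arrays of their arm. Its log2 change was -0.25 ± 0.17 at 8 h and -0.15 ± 0.17 at 24 h in siPKCiz cells and -0.27 ± 0.17 and -0.003 ± 0.171 in siControl cells, with 95% intervals whose upper ends were 0.106, 0.213, 0.085 and 0.355. Without the arrays numbered 1, ACTA2 was called lower after TGFβ in siControl cells, at -0.41 ± 0.12 at 8 h (limma adjusted p = 0.0248). At 24 h it was also called lower there, at -0.40 ± 0.12 (limma adjusted p = 0.0256). In siPKCiz cells ACTA2 was not called in that fit, which leaves 2 arrays in each group. The share of all genes that the fit called after TGFβ is not given here. TAGLN2 (probe set 7921487, chr1:159918111-159925507), the non-muscle transgelin, ranged from 1453 to 1944 units over all 18 arrays and was not called in any comparison. The α-actins are close to each other in coding sequence, and how far the probe sets of ACTA2 and ACTC1 pick up each other's RNA was not tested.

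**Figure D2:**
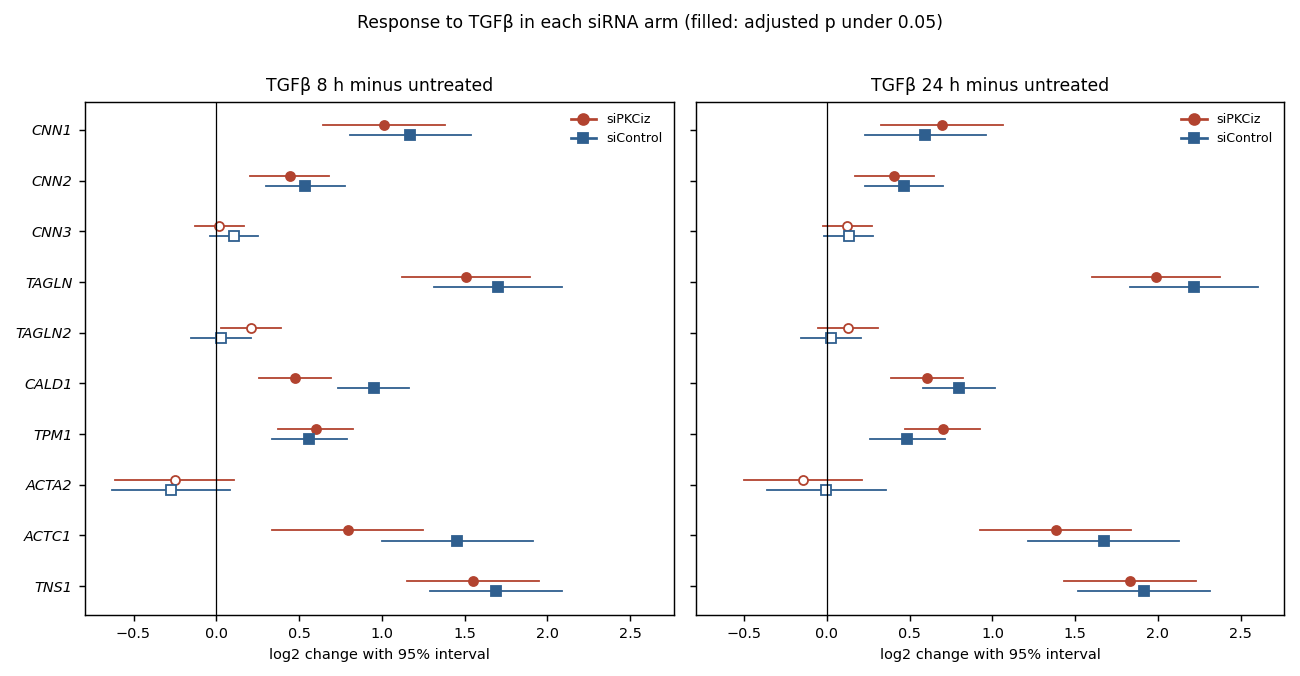
Log2 change after TGFβ at 8 h (left) and 24 h (right) for the 10 members, with 95% intervals from limma; circles are siPKCiz and squares siControl, and filled symbols passed an adjusted p under 0.05. The same 7 genes are filled in both arms at both times, while the symbols of CNN3, TAGLN2 and ACTA2 are open.

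Between 8 h and 24 h the members were not called different in either arm. In siPKCiz cells 0 of 10 were called, where 0.386% of all genes were higher and 0.419% lower at 24 h, and in siControl cells 0 of 10 were called, where 1.31% were higher and 1.10% lower. At an unadjusted p under 0.05, 2 members passed in each arm, as did 12.2% of all genes in siPKCiz cells and 13.6% in siControl cells. The values ran in opposite ways for different members: the 24 h minus 8 h difference of CNN1 was -0.32 ± 0.18 in siPKCiz cells and -0.58 ± 0.18 in siControl cells (limma adjusted p = 0.489 and 0.101), while that of TAGLN was 0.48 ± 0.18 and 0.51 ± 0.18 (0.283 and 0.187). ACTC1 differed by 0.59 ± 0.22 in siPKCiz cells (0.263). Without the arrays numbered 1, ACTC1 was called higher at 24 h in siPKCiz cells at 0.66 ± 0.11 (limma adjusted p = 0.00632, with 1.63% of all genes called), and TAGLN and TNS1 in siControl cells at 0.62 ± 0.15 (0.0302) and 0.41 ± 0.11 (0.0474), with 3.65% of all genes called. CNN1 was called lower at 24 h in siControl cells only without the 24 h array numbered 3, at -0.76 (0.042).

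Silencing of the atypical kinases was accompanied by a higher level of CNN2 in every condition. The 9 siPKCiz arrays had 1683 to 2510 units of CNN2 and the 9 siControl arrays 414.8 to 830.8, so the arms did not overlap with or without TGFβ. The log2 difference was 1.73 ± 0.11 in untreated cells (3.31-fold, limma adjusted p = 5.15e-08), 1.63 ± 0.11 at 8 h (3.10-fold, 1.33e-07) and 1.67 ± 0.11 at 24 h (3.18-fold, 9.09e-08). In each condition this was the largest rise among the 18377 genes. Of the 10 members, 2 were called in untreated cells, against 3.58% of all genes, 1 at 8 h against 5.41% and 1 at 24 h against 3.19%. CNN2 kept its call without the arrays numbered 1, at 1.56 ± 0.09 untreated, 1.67 ± 0.09 at 8 h and 1.55 ± 0.09 at 24 h, and under all other alternatives tried. The untreated siPKCiz arrays, at 1683 to 1729 units, lay above the highest TGFβ-treated siControl array, at 830.8.

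The other calponins did not follow CNN2. CNN1 differed by 0.10 ± 0.18 untreated, -0.06 ± 0.18 at 8 h and 0.20 ± 0.18 at 24 h, with 95% intervals inside -0.424 and 0.569, and was not called. CNN3 was above siControl by 0.20 ± 0.07 untreated, 0.11 ± 0.07 at 8 h and 0.19 ± 0.07 at 24 h, with limma adjusted p of 0.129, 0.368 and 0.16. Its untreated arrays had 2779, 2969 and 2986 units in siPKCiz cells against 2705, 2447 and 2451 in siControl cells.

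CALD1 was the other member called in untreated cells, with 1151, 1284 and 1163 units in siPKCiz cells against 909.7, 929.6 and 880.6 in siControl cells. The groups did not overlap, and the log2 difference was 0.40 ± 0.10 (limma adjusted p = 0.037). The call was lost with quantile normalization (0.0852), with each array centred on its median (0.13), without replicate number 2 (0.406) or 3 (0.361) and without any single untreated array, where the adjusted p ran from 0.0591 to 0.153. After TGFβ the CALD1 difference was -0.07 ± 0.10 at 8 h and 0.21 ± 0.10 at 24 h, and neither was called.

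**Figure D3:**
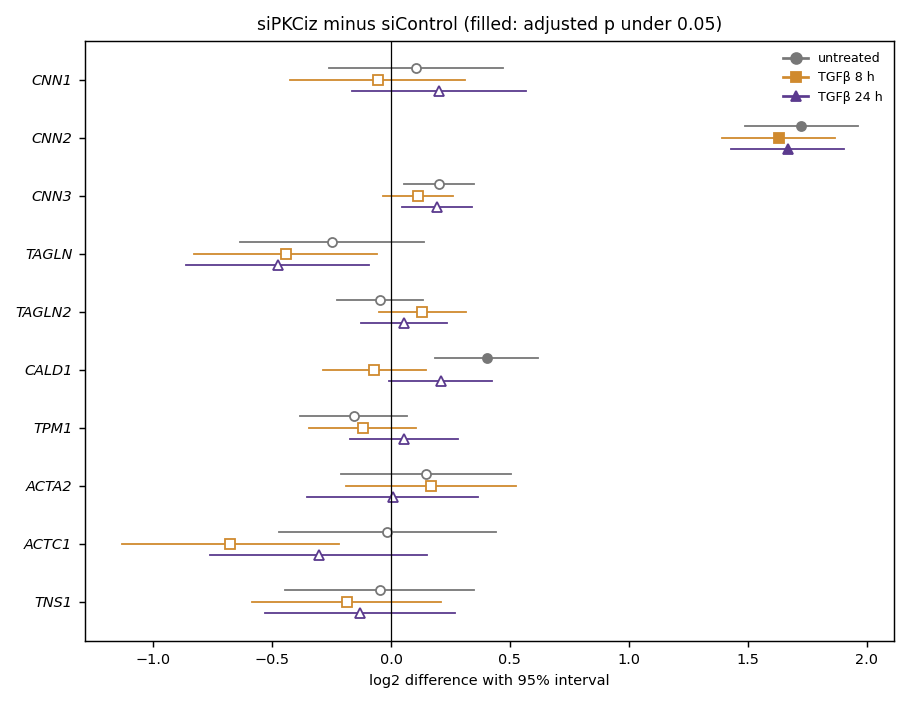
Log2 difference between siPKCiz and siControl cells for the 10 members, with 95% intervals from limma, in untreated cells (circles), at 8 h (squares) and at 24 h of TGFβ (triangles); filled symbols passed an adjusted p under 0.05. CNN2 lies between 1.63 and 1.73 in all 3 conditions, CALD1 is filled in untreated cells, and the TAGLN and ACTC1 values after TGFβ lie below 0 without passing.

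TAGLN, ACTC1 and TNS1 had lower values in siPKCiz cells after TGFβ, but with all arrays none passed the test. TAGLN differed by -0.44 ± 0.18 at 8 h (limma adjusted p = 0.169) and -0.48 ± 0.18 at 24 h (0.194). Its 8 h arrays had 580.4, 565.1 and 491.9 units in siPKCiz cells against 789.9, 661.5 and 776.5 in siControl cells. ACTC1 differed by -0.68 ± 0.22 at 8 h (0.0769) and by -0.30 ± 0.22 at 24 h (0.572). TNS1 differed by -0.19 ± 0.19 at 8 h (0.614) and -0.13 ± 0.19 at 24 h (0.826). In untreated cells the 3 differences were -0.25 ± 0.18, -0.02 ± 0.22 and -0.05 ± 0.19, and none was called.

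Without the arrays numbered 1, all 3 were called lower at both times. That fit leaves 2 arrays in each group. None of the 3 was called at either time when replicate number 2 or 3 was left out instead. For TAGLN at 8 h the size of the difference was the same as with all arrays, and only its SE and call changed. At 8 h the differences were -0.44 ± 0.15 for TAGLN (limma adjusted p = 0.0487), -0.91 ± 0.11 for ACTC1 (6.01e-05) and -0.33 ± 0.11 for TNS1 (0.0448). At 24 h they were -0.76 ± 0.15 (0.00276), -0.64 ± 0.11 (0.00127) and -0.44 ± 0.11 (0.0143) for the same genes in the same order. In this 12-array fit 19.0% of all genes were called at 8 h and 11.3% at 24 h, against 4 of the 10 members each time, CNN2 included. The 24 h arrays show where the pattern parts: TAGLN had 1042 units on the siPKCiz array numbered 1 against 979 on the siControl array of that number, and 748.8 and 560.2 on siPKCiz arrays 2 and 3 against 1158 and 1040. TNS1 had 1689 against 1214 on the arrays numbered 1, and 1262 and 1126 against 1708 and 1523 on the others. ACTC1 had 358.8 against 278.5, and 388.4 and 298.5 against 513.1 and 548.3. Leaving out 1 array was enough for 2 of these calls, TAGLN at 24 h without siPKCiz array 1 (-0.71, adjusted p = 0.0252) and ACTC1 at 8 h without siControl array 1 (-0.82, 0.048). PRKCZ at 24 h was 205.7 on siPKCiz array 1 against 301.7 on siControl array 1. It was 189.1 and 152.4 on siPKCiz arrays 2 and 3 against 472.2 and 408.5 on siControl arrays 2 and 3. PRKCI at 24 h did not part in this way, at 457.3, 571.3 and 557.6 on siPKCiz arrays 1, 2 and 3. The siControl arrays of those numbers had 2633, 2571 and 2815. The part of either kinase in the members' values was not tested.

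**Figure D4:**
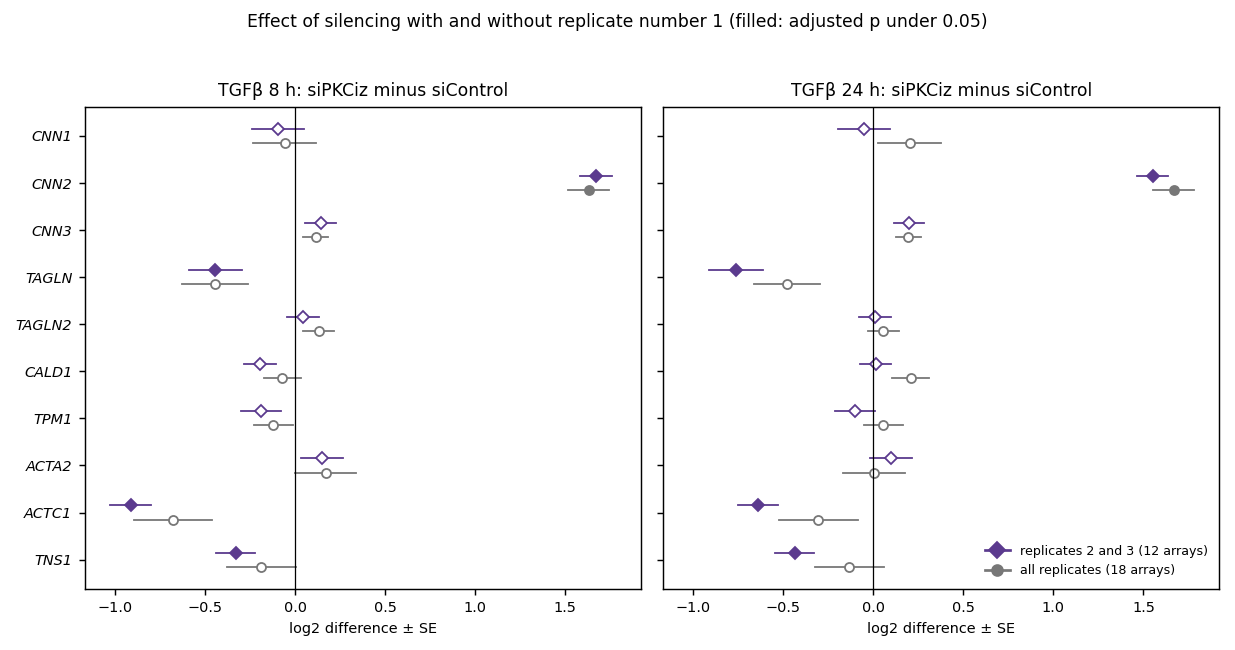
Log2 difference between siPKCiz and siControl cells at 8 h (left) and 24 h (right) of TGFβ for the 10 members, with SE; diamonds come from replicates 2 and 3 (12 arrays) and circles from all 18 arrays, filled where the limma adjusted p is under 0.05. CNN2 is filled either way, whereas TAGLN, ACTC1 and TNS1 are filled below 0 only for replicates 2 and 3.

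Whether silencing changed the size of the TGFβ response itself was tested as an interaction. No member was called at 8 h or at 24 h, and 0% of all genes were called at either time. At an unadjusted p under 0.05, 625 genes (3.4% of all) passed at 8 h, CALD1 and ACTC1 among them. At 24 h 705 (3.84%) passed, with no member among them. Both shares are smaller than this threshold passes where no gene differs. The 8 h response of CALD1 was smaller in siPKCiz cells by -0.47 ± 0.15 and that of ACTC1 by -0.66 ± 0.31 on the log2 scale, each with a limma adjusted p of 1. Without the arrays numbered 1 these were -0.63 ± 0.12 and -0.83 ± 0.16, each called at an adjusted p of 0.0433, with 0.316% of all genes called. For TAGLN the interaction was -0.20 ± 0.26 at 8 h and -0.23 ± 0.26 at 24 h, with 95% intervals from -0.74 to 0.35 and from -0.774 to 0.316.

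Ordered by mean level, the groups separated by TGFβ for most responders and by siRNA for CNN2. For TAGLN the order was untreated siPKCiz, untreated siControl, 8 h siPKCiz, 8 h siControl, 24 h siPKCiz and 24 h siControl, and neighbours overlapped except between the untreated and 8 h groups and between both 8 h groups. For CNN2 the siControl groups came first, untreated then 24 h then 8 h, followed by the siPKCiz groups in that order, and only the 8 h and 24 h groups of each arm overlapped. CNN1 ran from untreated siControl and untreated siPKCiz to the 24 h groups and then the 8 h groups, with its single gap above the untreated arrays. CALD1 had gaps between untreated siControl, untreated siPKCiz and the treated groups, which all overlapped in turn. ACTC1 had gaps above the untreated groups and between 8 h siPKCiz and the rest, and TNS1 and TPM1 had 1 gap, above the untreated groups. CNN3 had 1 gap, above untreated siControl, and neighbouring groups of TAGLN2 and ACTA2 overlapped throughout.

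The genes whose pattern over the 6 groups lay nearest to each of 3 members were found as the smallest root mean square difference of centred log2 group means. MYOCD was nearest to TNS1, at 0.12, followed by FRMD6 at 0.152, TSPAN2 at 0.190, CHRNA9 at 0.201 and COL4A1 at 0.207. COL4A1 was nearest to TAGLN, at 0.119, followed by CHRNA9 at 0.151, ADAM19 at 0.155, GAL at 0.168 and ITGB6 at 0.196. Nearest to CNN1 were JUN at 0.12, ULK1 and CRYAB at 0.123, DAAM1 at 0.124 and PPP1R13L at 0.128. Among the members themselves the closest to TAGLN was TNS1, at 0.176, and the closest to CNN1 was CALD1, at 0.213.

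Of the SRF system, 8 of 12 listed genes were measured, and MYOCD, SRF and FHL2, a cofactor with LIM domains, rose in all 4 TGFβ comparisons, with CSRP1 also called at 8 h in siPKCiz cells. MYOCD had 3174, 2229 and 2227 units at 8 h and 3725, 2929 and 2720 at 24 h in siPKCiz cells, against 697, 1231 and 1203 untreated. In siControl cells it had 3591, 2479 and 2512 at 8 h and 3494, 3197 and 2932 at 24 h, against 709.5, 1200 and 1313 untreated. Treated and untreated arrays of MYOCD did not overlap, and the log2 change was 1.31 ± 0.23 and 1.62 ± 0.23 in siPKCiz cells and 1.44 ± 0.23 and 1.62 ± 0.23 in siControl cells at 8 h and 24 h. SRF rose by 0.34 ± 0.08 at both times in siPKCiz cells and by 0.60 ± 0.08 at 8 h and 0.41 ± 0.08 at 24 h in siControl cells. At 8 h SRF was lower in siPKCiz cells, at 1269, 1164 and 1155 units against 1432, 1599 and 1400 in siControl cells, a log2 difference of -0.30 ± 0.08 (limma adjusted p = 0.0258), whereas MYOCD was not called in any silencing comparison.

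Of 21 other known SRF and myocardin targets, 18 were measured. In siPKCiz cells 9 rose and 1 fell at each time. Of all genes, 3.13% rose and 3.35% fell there at 8 h, and 4.65% and 6.09% at 24 h. In siControl cells 11 rose and 2 fell at 8 h and 10 rose and 1 fell at 24 h. The shares of all genes were 5.17% and 6.18%, and 5.85% and 6.46%. This list shares SRF and FHL2 with the SRF system, and PDLIM7, TGFB1I1 and VCL with the focal adhesion linkers. MYL9, ACTB, ACTG1 and TPM4 are also in other lists, so counts of the lists are not independent. JUNB, an AP-1 subunit, rose by 1.40 ± 0.19 at 8 h in siPKCiz cells and by 1.25 ± 0.19 in siControl cells, and PDLIM7, a PDZ and LIM protein of actin bundles, rose by 0.96 ± 0.11 and 0.81 ± 0.11. The matricellular genes CCN2 and CCN1 rose in siControl cells at 8 h by 1.25 ± 0.18 and 1.45 ± 0.22, and CCN2 rose in siPKCiz cells by 0.80 ± 0.18. At 8 h, 4 of the 18 were lower in siPKCiz than in siControl cells and none was higher: EGR1 by -0.96 ± 0.26, CCN1 by -0.92 ± 0.22, TGFB1I1 by -0.33 ± 0.09 and SRF, which is in both lists, by -0.30 ± 0.08. Of all genes, 1.90% were lower and 3.52% higher in that comparison. FOS was the 1 called at 24 h, lower by -0.59 ± 0.14, and none was called in untreated cells. The list's median change after TGFβ lay between 0.306 and 0.473 over the 4 comparisons.

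Of the focal adhesion linkers and remaining tensins, 17 of 20 were measured, and 8 rose and 1 fell at 8 h and 7 rose and 1 fell at 24 h in siPKCiz cells. In siControl cells 8 rose and 2 fell at 8 h and 7 rose and 2 fell at 24 h. The shares of all genes in these comparisons are those printed next for the myosin genes. PDLIM7, FERMT2, PXN and ZYX, which join integrins to actin bundles, were among those called up. Of 16 genes of myosin and its regulators, 1 rose at 8 h and 2 rose and 1 fell at 24 h in siPKCiz cells, where 3.13% and 4.65% of all genes rose and 3.35% and 6.09% fell. In siControl cells 2 rose and 2 fell at 8 h and 4 rose and 1 fell at 24 h, where 5.17% and 5.85% of all genes rose and 6.18% and 6.46% fell. MYL9, the smooth-muscle regulatory light chain, rose at 24 h by 0.49 ± 0.14 in siPKCiz cells and 0.58 ± 0.14 in siControl cells, while MYLK, the kinase that activates it, fell by 0.47 and by 0.71 at the same time. The 4 other actins, ACTA1, ACTB, ACTG1 and ACTG2, and the 3 further family genes measured, TAGLN3, TPM2 and TPM4, were not called in any comparison.

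The name smooth-muscle refers to where these genes are best known, and several defining markers of that cell type were dim in A549 cells. Of 15 defining smooth muscle markers, MYOCD, SMTN, SYNM, PPP1R14A, MYLK and DES lay above the array median on all 18 arrays. MYH11, LMOD1, SYNPO2, PLN, KCNMB1, ITGA8, HSPB6 and CASQ2 lay below it on every array, and ACTG2 lay above it on 1. MYH11, the smooth-muscle myosin heavy chain, had 63.62 to 75.11 units and was not called in any comparison. After TGFβ, MYOCD and SMTN, a smooth-muscle cytoskeletal gene, rose in all 4 comparisons, and MYLK fell in 3 of them, all but 8 h in siPKCiz cells. In the silencing comparisons SYNPO2 was higher in siPKCiz cells at 8 h by 0.50 ± 0.09 and SYNM at 24 h by 0.52 ± 0.12. SMTN rose in siPKCiz cells by 1.21 ± 0.17 at 8 h and 1.11 ± 0.17 at 24 h. The summed intensity of the 15 markers was 5755 to 7135 at 8 h and 6203 to 7164 at 24 h in siPKCiz cells, against 3890 to 4576 untreated, and 5974 to 7645 and 6206 to 6659 in siControl cells, against 3665 to 4461. MYOCD and SMTN were the only markers of the 15 called up after TGFβ, and the list's median log2 change was 0.018 at 8 h and -0.009 at 24 h in siPKCiz cells and 0.058 and 0.035 in siControl cells.

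**Figure D5:**
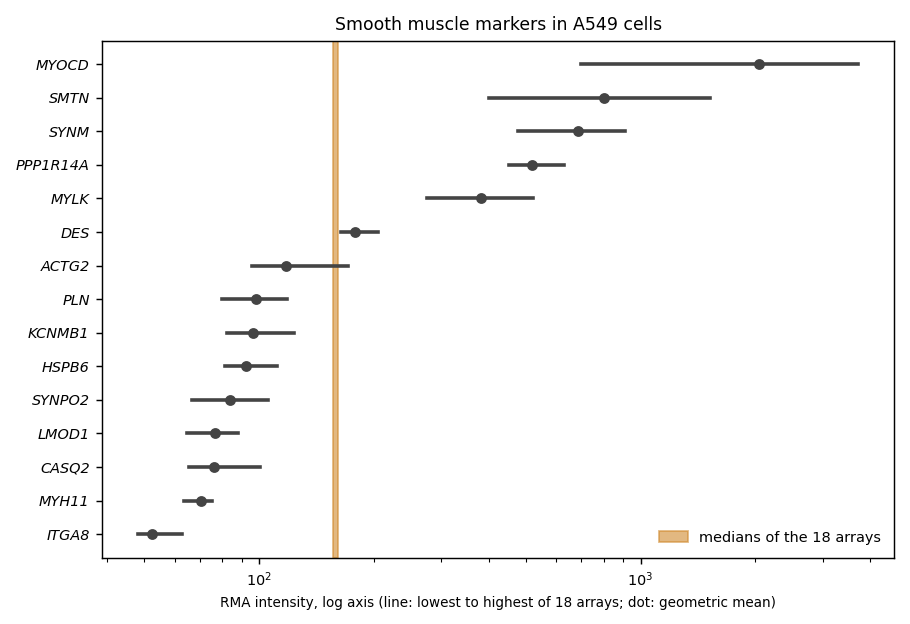
RMA intensity on a log axis of 15 smooth muscle markers in A549 cells; each line runs from the lowest to the highest of 18 arrays, the dot is the geometric mean and the band spans the medians of the arrays. MYOCD spans 697 to 3725, while MYH11 and 7 other markers lie wholly below the band.

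Markers of other cells were read beside the members. Of 10 epithelial genes, 6 lay above the array median on all arrays, with KRT7 at 6842 to 9938 units; SFTPB, SFTPC and NKX2-1 lay below it on all 18. At 24 h CDH1 fell by 1.37 in siPKCiz cells and by 1.62 in siControl cells, and KRT19 fell by 0.91 and by 1.07. CLDN4 rose by 0.98 ± 0.20 and 1.25 ± 0.20. Most of the 10 were not called at 24 h, 7 in siPKCiz and 6 in siControl cells, with KRT7, KRT8 and KRT18 among them. The list's median change was then -0.078 and -0.111. At 8 h KRT7 was called up, by 0.34 and 0.27. EPCAM fell in siControl cells at 24 h by 1.23, and its change in siPKCiz cells, -0.54 ± 0.27, was not called. At 24 h EPCAM was higher in siPKCiz than in siControl cells by 1.20 ± 0.27 (limma adjusted p = 0.0192). That difference was 0.51 ± 0.27 untreated and 0.55 ± 0.27 at 8 h, neither of them called. The EPCAM interaction at 24 h, 0.69 ± 0.39, was not called. Of 11 striated muscle markers measured out of 12, 10 lay below the array median on every array; MYOG had 151.3 to 237.6 units, and none was called in any comparison. Fibroblast and pericyte markers summed to 1710 to 2025 at 8 h and 2369 to 2605 at 24 h in siPKCiz cells, against 1508 to 1606 untreated, and to 1974 to 2201 and 2133 to 2549 in siControl cells, against 1588 to 1746. COL1A1 rose in all 4 comparisons, by 1.46 ± 0.17 at 24 h in siPKCiz cells and 1.19 ± 0.17 in siControl cells, and LUM rose at 24 h by 0.84 ± 0.14 and 1.28 ± 0.14. PDGFRA rose at 24 h in siPKCiz cells by 0.67 ± 0.15. Most of the 11 fibroblast and pericyte markers were not called after TGFβ: 10 at 8 h in each arm, and 8 in siPKCiz and 9 in siControl cells at 24 h. Their median log2 change was 0.008 at 8 h and 0.151 at 24 h in siPKCiz cells. In siControl cells it was 0.04 and 0.067. THY1 was lower in siPKCiz than in siControl cells in all 3 conditions, by -0.78 ± 0.15 untreated, -0.59 ± 0.15 at 8 h and -0.595 ± 0.146 at 24 h, and LUM was higher by 0.76 ± 0.14 untreated and 0.58 ± 0.14 at 8 h. Of 10 leukocyte and endothelial markers, CD68, at 679.4 to 1067 units, was the 1 above the array median throughout. CD14 fell in all 4 TGFβ comparisons, by 0.60 at 8 h and by 0.56 at 24 h in siPKCiz cells and by 0.655 and by 0.66 in siControl cells. TEK was called up by 0.36 at 8 h and 0.22 at 24 h in siControl cells and by 0.245 at 24 h in siPKCiz cells. MS4A1 was called up by 0.34 at 8 h in siControl cells and by 0.38 at 24 h in siPKCiz cells. All 3 were dim: CD14 lay above the array median on 3 of 18 arrays, and TEK and MS4A1 on none. The part of these marker changes in the members' values was not tested.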

How the data were processed

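The deposited values are linear intensities per probe set that the authors made by RMA, and Partek is also named, per the submitters' processing notes; neither version is given in the sources used here. Labelled cDNA was made from 200 ng of total RNA, per the labels' protocols. Of 28869 probe sets, 19310 carry 1 gene symbol, 1752 several and 7807 none, and only the first kind was used, with the brightest probe set per symbol, giving 18377 genes. Intensities were converted to log2 once, with no further normalization, and fitted with limma 3.58.1 (R 4.3.3) as 6 group means over 18 arrays with 12 residual degrees of freedom, after a test on simulated data. The number of arrays limits the precision. Replicates are labelled biological, and whether they came from separate cultures is not given, so p-values measure the spread between these arrays. Replicate numbers are shared between groups, and the labels do not say whether same-numbered arrays were made together. Deviations of same-numbered arrays correlated at -0.514 to 0.258, and those of arrays with other numbers at -0.338 to 0.438. Same-numbered arrays were therefore not treated as pairs in the main fit.

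The members and gene lists were chosen with earlier results of these data known. Genes beyond the members were named by rule: up to 4 called genes with the largest changes per list and comparison, the marker of highest intensity per list, which does not rank RNA levels, and the 5 nearest patterns for TAGLN, CNN1 and TNS1; ZYX and the uncalled markers, actins and family genes were named after their values were seen. Alternatives were a replicate block, a filter on dim genes, quantile normalization, median centring, a trended robust variance, a fit of only the groups compared, the mean of probe sets, a 1.5-fold minimum and leaving out replicates.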

Additional observations from a re-analysis of the deposited data

How the results depend on the processing

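Of 32 called member values, each under 8 alternatives other than leaving out arrays, 242 of 256 kept their direction and their call, 14 lost the call and none reversed; when arrays were left out, 239 of 288 kept both, 49 lost the call and none reversed. Of 78 values not called, the same alternatives gave 3 new calls and 9 changes of sign in 624 values, and leaving out arrays gave 16 new calls and 81 changes of sign in 822. The replicate block treats same-numbered arrays as sets, and the labels do not say whether they are. It left 1 member called for silencing in untreated cells (CALD1, limma adjusted p = 0.065). For TGFβ it left 6 at 24 h in siControl cells (CNN1, 0.0505) and 6 at 8 h in siPKCiz cells (ACTC1, 0.054). No other count changed. Quantile normalization, median centring and a 1.5-fold minimum also left 1 member called for silencing in untreated cells, in place of 2. The 1.5-fold minimum left 5 members called for TGFβ at 8 h and 6 at 24 h in siPKCiz cells, without CNN2 and, at 8 h, CALD1, and 5 at each time in siControl cells, without CNN2 and TPM1. Fitting only the groups compared called 3 members for silencing at 8 h (CNN2, TAGLN, ACTC1) in place of 1, and 1 (TAGLN) for 24 h against 8 h in siControl cells in place of 0, and left 6 for TGFβ at 24 h in siControl cells (CNN2, 0.0549).

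Leaving out arrays, the count of members called for TGFβ ran from 3 to 7 at 8 h and from 5 to 7 at 24 h in siPKCiz cells, and from 6 to 8 at 8 h and from 4 to 8 at 24 h in siControl cells. For 24 h against 8 h it ran from 0 to 1 in siPKCiz cells and from 0 to 2 in siControl cells. For silencing it ran from 1 to 2 in untreated cells, from 1 to 4 at 8 h and from 1 to 4 at 24 h, and for the interaction from 0 to 2 at 8 h and stayed at 0 at 24 h. TAGLN and TNS1 kept all 4 of their TGFβ calls, and CNN2 its 3 silencing calls, under every alternative run. CNN1 lay below the array median on all 6 untreated arrays and ACTC1 on 4, where signal near background limits the size of a fold change.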
